A study of Mus musculus with 20 samples.

Results

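Contacts inside the *Fgf8* TAD were described from capture Hi-C maps of E11.5 mouse limb buds. A TAD, or topologically associating domain, is a stretch of chromosome whose parts touch each other more often than they touch the sequence beyond it. The TAD was taken as the interval from 45650001 to 45820000 on chromosome 19 (mm9), which is 170 kb or 34 bins of 5 kb, and its members are the 595 bin pairs with both bins in this interval, out of 77028 bin pairs in the whole map. Of these, 34 join a bin to itself and 561 join different bins. The bin from 45775001 to 45780000 held no value in any map, which leaves 528 pairs of different bins with values. The breakpoints of the mutants divide the TAD into 3 segments. The *Fbxw4* segment holds the 16 bins from 45650001 to 45730000, the middle segment the 11 bins from 45735001 to 45790000, of which 10 have values, and the *Fgf8* segment the 5 bins from 45795001 to 45820000. The 2 bins that hold a breakpoint enter 63 of the pairs with values and were described apart, so that 465 pairs make up the 6 blocks, which are the pairs within each segment and between each 2 of them.

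The maps came from homozygous *Dup*, *Inv1* and *Inv2* embryos, from heterozygous *Dup* and *Inv1* embryos and from wild-type embryos, all at E11.5, with forelimb and hindlimb buds pooled. *Dup* is a tandem duplication of 541 kb (45251633 to 45792725), *Inv1* an inversion of 123 kb (45611050 to 45734101) and *Inv2* an inversion of 460.4 kb (45332288 to 45792725). The mutants were made with CRISPR/Cas9 in embryonic stem cells, and the lines were later crossed with C57BL/6 animals. The labels give the background of all mutant libraries as G4 ESC, a hybrid of 129sv and C57Bl6, and that of the wild-type as c57bl6.J, while the study's text on another experiment gives a C57Bl6 background for *Dup*. By the labels, rearrangement and strain background cannot be told apart in a comparison of a mutant with the wild-type, and for *Dup* the background is not settled. *Inv1* and *Inv2* carry the same background label. The 20 libraries were merged into 1 map per genotype. Homozygous *Dup*, *Inv1* and *Inv2* and the wild-type were each joined from 3 biological replicates and 1 technical one, heterozygous *Inv1* from 3 biological replicates and heterozygous *Dup* from 1. The spread between samples can therefore not be measured and no test was made. Every interval given is a 95% interval from the number of read pairs and covers counting error only.

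*Fgf8* encodes a secreted fibroblast growth factor made by the apical ectodermal ridge (AER), the strip of ectoderm at the rim of the limb bud that keeps the underlying mesenchyme growing. Most of its known AER enhancers lie far from the gene in introns of *Fbxw4*, and another lies near *Fgf8* itself. An enhancer usually acts on genes of its own TAD, and a rearrangement that moves a piece of a TAD can separate an enhancer from its gene or bring it to another one. The AER is a small part of the limb bud and was not separated here, so the maps are averages over all limb bud cells.

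The protein-coding genes of the interval lie, from the centromere, in the order *Dpcd*, *Fbxw4* and *Fgf8*. *Dpcd* (45635105 to 45652769, plus strand), named for a deletion in mice with primary ciliary dyskinesia, reaches into the first bin of the TAD. *Fbxw4* (45652744 to 45734802, minus strand) encodes an F-box and WD40 repeat protein and fills the *Fbxw4* segment. *Fgf8* (45811288 to 45817405, minus strand) lies in the *Fgf8* segment. The nearest protein-coding genes beyond the ends are *Poll* (45626765 to 45635021, minus strand), which encodes DNA polymerase lambda, and *Npm3* (45822224 to 45824081, minus strand), which encodes a histone-binding protein of the nucleoplasmin family. No annotated protein-coding gene lies in the middle segment. The first 701 bases of *Fbxw4*, counted from its start site, lie between the *Inv1* breakpoint and that segment.

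The sequences at the 2 breakpoints inside the TAD are shown because every block of contacts is defined by them. They are the reference sequence of mm9, written 5′ to 3′ on the strand of the guide, with the protospacer in capitals and the AGG motif needed by Cas9 directly after it. Each guide matched chromosome 19 at 1 place. The cut is expected 3 bases before the end of the capitals, and small deletions or insertions at the repaired junctions were not analysed here.
Inv1 breakpoint, chr19:45734055-45734134, plus strand: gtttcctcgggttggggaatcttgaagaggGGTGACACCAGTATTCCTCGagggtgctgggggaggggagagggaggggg
Dup and Inv2 breakpoint, chr19:45792693-45792772, minus strand: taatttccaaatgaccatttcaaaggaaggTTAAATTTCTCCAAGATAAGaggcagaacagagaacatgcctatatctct
The *Inv1* breakpoint lies in an intron of *Fbxw4*, 83.3 kb from the *Fgf8* start site. The breakpoint shared by *Dup* and *Inv2* is intergenic and lies 24.7 kb from the *Fgf8* start site. The other breakpoint of each mutant lies outside the TAD on the centromeric side.

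Read pairs were recovered from the deposited signal by solving for 1 factor per bin, and 100% of the values of each map came out whole within 0.01. The TAD held 721414 read pairs between different bins in *Dup*, 379391 in *Inv1*, 420415 in *Inv2*, 123539 in heterozygous *Dup*, 290955 in heterozygous *Inv1* and 298064 in the wild-type. The poorest bin pair of the TAD held 20 read pairs, in heterozygous *Dup*. Bins of the TAD hold between 4 and 24 GATC sites, the motif cut in the protocol. Read pairs per bin, relative to bins outside all rearrangements, were 2.12 times the wild-type in the *Fbxw4* segment of *Dup* and 1.59 times in that of heterozygous *Dup*. One label of the heterozygous *Dup* library names an inversion and its title a duplication, and this library was placed by its title. It also stands apart in the *Fgf8* segment, where read pairs per bin were 0.649 times the wild-type, against 1.08 to 1.13 times in the other mutants.

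In the wild-type, the contact that stood out most inside the TAD was that between its ends. Pairs between the *Fbxw4* and the *Fgf8* segment, at 70 to 165 kb, had 1.53 (1.51 to 1.55) times the mean of that map for pairs equally far apart, a value called the level relative to distance. Pairs between the *Fbxw4* and the middle segment had 1.14 (1.12 to 1.15) times and those between the middle and the *Fgf8* segment 1.07 (1.05 to 1.09) times. Within the segments the values were 1.07 for the *Fbxw4* segment, 1.09 for the middle segment and 0.939 for the *Fgf8* segment. Thus 5 of the 6 blocks lay above the mean of their distances, and the short *Fgf8* segment below it. The pair of the first and the last bin, at 165 kb, had the highest value of its block, 3.10, from 348 read pairs.

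**Figure D1:**
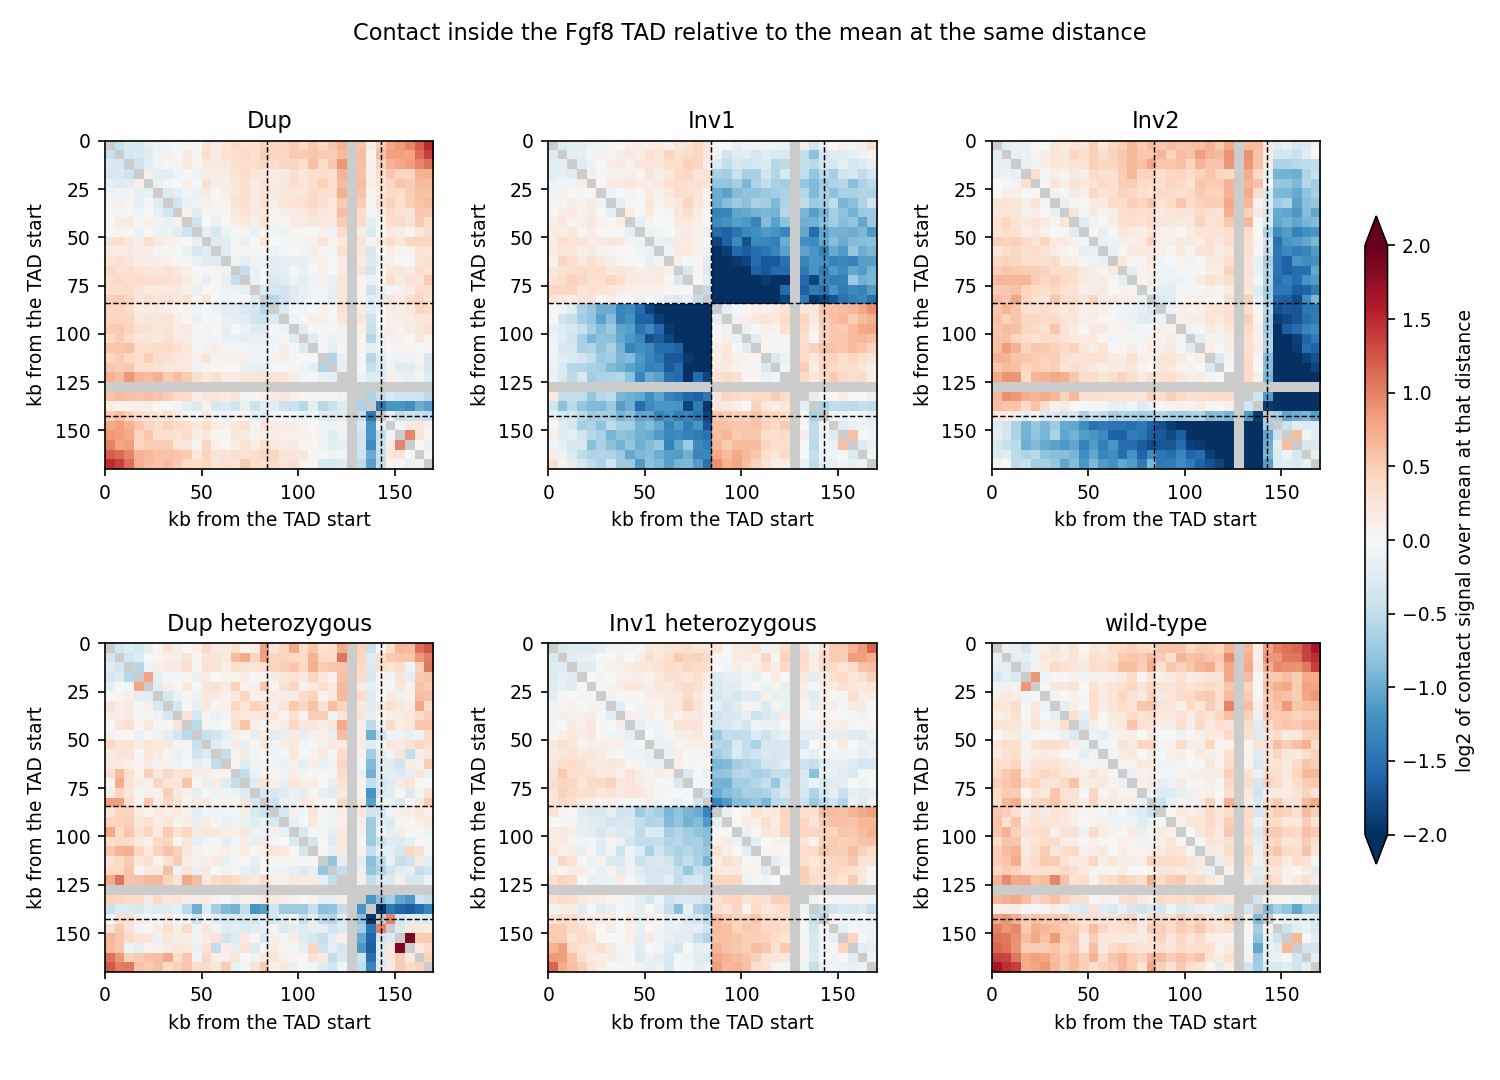
Contact signal of each pair of 5 kb bins inside the *Fgf8* TAD, divided by that map's mean for pairs equally far apart, on a log2 colour scale that is clipped at -2 and 2 (axes in kb from the start of the TAD, dashed lines at the breakpoints, grey for same-bin pairs and the bin without values). Blocks across the breakpoint are mostly blue in *Inv1* and *Inv2*, with levels of 0.431 and 0.602 in *Inv1* and of 0.204 and 0.508 in *Inv2*.

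The first comparison asks how contact across the *Inv1* breakpoint differs when the *Fbxw4* segment is inverted away from the rest of the TAD. The level relative to distance between the *Fbxw4* and the middle segment was 1.08 in *Dup*, 0.431 in *Inv1*, 1.19 in *Inv2*, 1.09 in heterozygous *Dup*, 0.801 in heterozygous *Inv1* and 1.14 in the wild-type. *Inv1* was the lowest of the 6 maps, with heterozygous *Inv1* next and the other 4 maps above 1. Between the *Fbxw4* and the *Fgf8* segment the level was 1.37 in *Dup*, 0.602 in *Inv1*, 0.508 in *Inv2*, 1.18 in heterozygous *Dup*, 1.07 in heterozygous *Inv1* and 1.53 in the wild-type. Here *Inv2* and *Inv1* were the only maps below 1.

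After both maps had been scaled jointly at each distance, the ratio of *Inv1* to the wild-type across the breakpoint was 0.381 (95% counting interval 0.376 to 0.386) over 240 bin pairs, from 43871 *Inv1* and 68122 wild-type read pairs. The mean signal of these pairs was 16.4 in *Inv1* and 43.0 in the wild-type, in units of maps that total 1000000 outside the inversion. Between the *Fbxw4* and the middle segment the ratio was 0.372 (0.365 to 0.378), and between the *Fbxw4* and the *Fgf8* segment 0.406 (0.397 to 0.415). The ratio of means was lower for the middle segment as partner, and the counting intervals do not overlap. The medians of the ratios of single pairs did not keep this order, with 0.413 for the middle segment and 0.412 for the *Fgf8* segment. Single pairs of the first of these blocks had ratios between 0.122 and 0.764, and those of the second between 0.288 and 0.588, so none of the 240 pairs reached the wild-type value.

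Of the 465 pairs in the blocks, 232 were lower by at least 1.5-fold in *Inv1* and none was higher by that much, with at least 10 read pairs in each map. Among all bin pairs of the map at the same range of distances, 4.26% were lower and 4.18% higher by this fold. The lower pairs of the TAD comprised 151 of 160 between the *Fbxw4* and the middle segment, all 80 between the *Fbxw4* and the *Fgf8* segment and 1 within the *Fbxw4* segment. The 9 pairs across the breakpoint that did not pass the fold all lay at 85 kb or more and had their *Fbxw4* bin in the 20 kb from 45650001 to 45670000. In the inverted order these bins are the closest of the segment to the middle segment.

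Contact on either side of the *Inv1* breakpoint lay near the wild-type. Within the segments and between the middle and the *Fgf8* segment, the ratio over 225 pairs was 0.969 (0.962 to 0.975). It was 0.944 (0.936 to 0.951) within the *Fbxw4* segment, 0.941 (0.927 to 0.956) within the middle segment and 1.04 (1.02 to 1.06) within the *Fgf8* segment. Between the middle and the *Fgf8* segment it was 1.11 (1.09 to 1.13), the highest of the 6 blocks, and 44 of the 50 pairs were above 1. With read pairs that were not balanced, the ratio over the 225 pairs turned to 1.02, so no direction is given for it.

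In the inverted order, the sequence from the centromeric *Inv1* breakpoint to the start of the TAD, 39.0 kb long, lies between the *Fbxw4* segment and the middle segment, and the order of the *Fbxw4* bins is turned round. The wild-type mean contact at each distance gives an expected ratio for this new order, as if every pair had the mean of its distance. It is an expectation from distance only, holds no boundary and has no error of its own. The observed ratio divides by the actual wild-type contact. Across the breakpoint this lay above that mean, at 1.14 times with the middle and 1.53 times with the *Fgf8* segment. A value below the expectation therefore also holds any loss of this excess, and these parts were not separated. For the pairs across the breakpoint it was 0.667, and the observed ratio was 0.571 times it. The observed value was 0.591 times the expectation for the middle segment as partner and 0.505 times for the *Fgf8* segment.

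The difference from this expectation depended on distance. For pairs up to 50 kb apart in the reference order the observed *Inv1* ratio was 0.236 (0.229 to 0.243) and the expected one 0.327. At 55 to 100 kb they were 0.425 (0.417 to 0.434) and 0.779, and at 105 to 165 kb 0.468 (0.457 to 0.479) and 1.03. The observed ratio was thus closer to 1 for distant pairs than for near ones, but less so than the expectation, which passed 1. Within the segments the ratio was 0.963 (0.957 to 0.970) up to 50 kb and 1.05 (1.02 to 1.07) at 55 to 100 kb.

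Single bins of the *Fbxw4* segment showed the same gradient. The bin next to the *Inv1* breakpoint, from 45725001 to 45730000, had a ratio of 0.225 (0.214 to 0.237) for its contact with the middle and *Fgf8* segments together, where distance gives 0.270. The bin from 45685001 to 45690000 had 0.410 (0.392 to 0.430), where distance gives 0.766. The first bin of the TAD, which holds the ends of *Dpcd* and *Fbxw4*, had 0.601 (0.570 to 0.632), where distance gives 1.44. The expectation was above 1 for 5 of the 16 bins, and all 16 observed intervals lay below 1 and below their expectation.

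**Figure D2:**
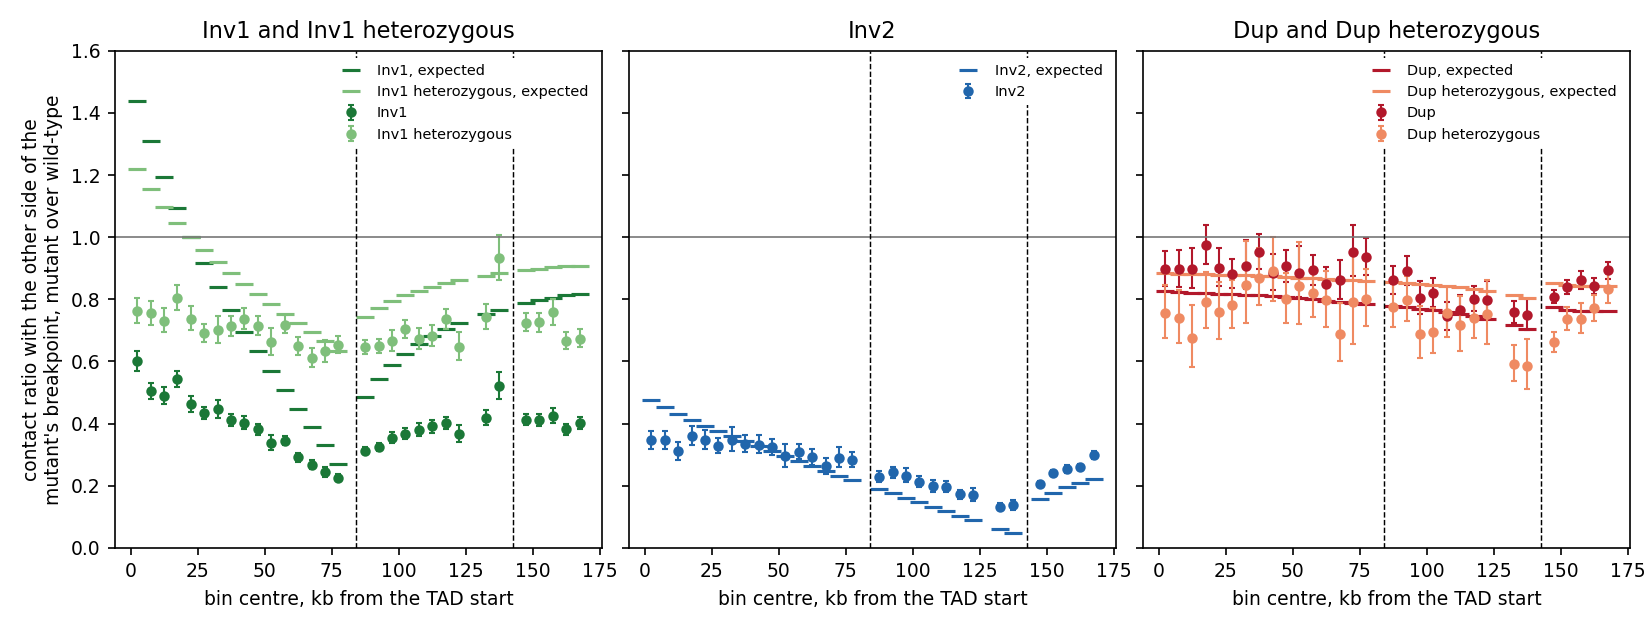
Contact ratio of each bin with the segments on the other side of the breakpoint of that mutant, mutant over wild-type, against the bin's distance from the start of the TAD in kb (points with 95% counting intervals, dashes for ratios expected from distance, dashed vertical lines at the breakpoints). In *Inv1* every point lies below its dash, and in *Inv2* the middle segment points lie above theirs.

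*Inv2* has its breakpoint between the middle and the *Fgf8* segment, so that the *Fbxw4* and middle segments are inverted together and *Fgf8* stays behind. The level relative to distance between the middle and the *Fgf8* segment was 0.865 in *Dup*, 1.21 in *Inv1*, 0.204 in *Inv2*, 0.771 in heterozygous *Dup*, 1.21 in heterozygous *Inv1* and 1.07 in the wild-type. *Inv2* was far below all other maps, and both maps with the *Inv1* allele were above the wild-type. The ratio to the wild-type across the breakpoint was 0.249 (95% counting interval 0.244 to 0.253) in *Inv2* over 130 bin pairs, from 19731 *Inv2* and 43706 wild-type read pairs. The mean signal was 14.1 in *Inv2* and 56.7 in the wild-type.

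In *Inv2* the middle segment had less of its wild-type contact with the *Fgf8* segment than the *Fbxw4* segment had. The ratios were 0.186 (0.180 to 0.191) for the middle segment and 0.319 (0.311 to 0.326) for the *Fbxw4* segment, and their intervals do not overlap. All 130 pairs across the breakpoint were lower by at least 1.5-fold, also by 2-fold, and none of the 335 pairs on either side of it passed 1.5-fold in either direction. Over the map at these distances, 6.78% of pairs were lower and 0.535% higher by 1.5-fold. Contact between the *Fbxw4* and the middle segment, which are inverted as 1 piece, was 1.01 (0.999 to 1.03) times the wild-type. Within the *Fbxw4*, middle and *Fgf8* segments the ratios were 0.985 (0.977 to 0.993), 0.943 (0.929 to 0.958) and 0.984 (0.967 to 1.00). The direction for all 335 pairs together, with a ratio of 0.982, depended on the scaling.

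Against the expectation from distance, the block of the middle segment lay above it in *Inv2* and that of the *Fbxw4* segment close to it. As for *Inv1*, this expectation leaves out the wild-type levels of these blocks, which were 1.07 and 1.53. Between the middle and the *Fgf8* segment the expectation was 0.103, and the observed ratio was 1.79 (1.74 to 1.85) times it. Between the *Fbxw4* and the *Fgf8* segment it was 0.326, and the observed ratio was 0.976 (0.954 to 0.999) times it. By distance in the reference order, the observed ratios across the breakpoint were 0.159 (0.153 to 0.165) up to 50 kb, 0.263 (0.255 to 0.271) at 55 to 100 kb and 0.336 (0.327 to 0.345) at 105 to 165 kb. The expected ratios were 0.0814, 0.207 and 0.376 in the same order. Single bins of the middle segment had ratios from 0.132 to 0.243 with the *Fgf8* segment, and all 10 intervals lay above their expectation. Of the 16 bins of the *Fbxw4* segment, 4 lay above and 6 below it.

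**Figure D3:**
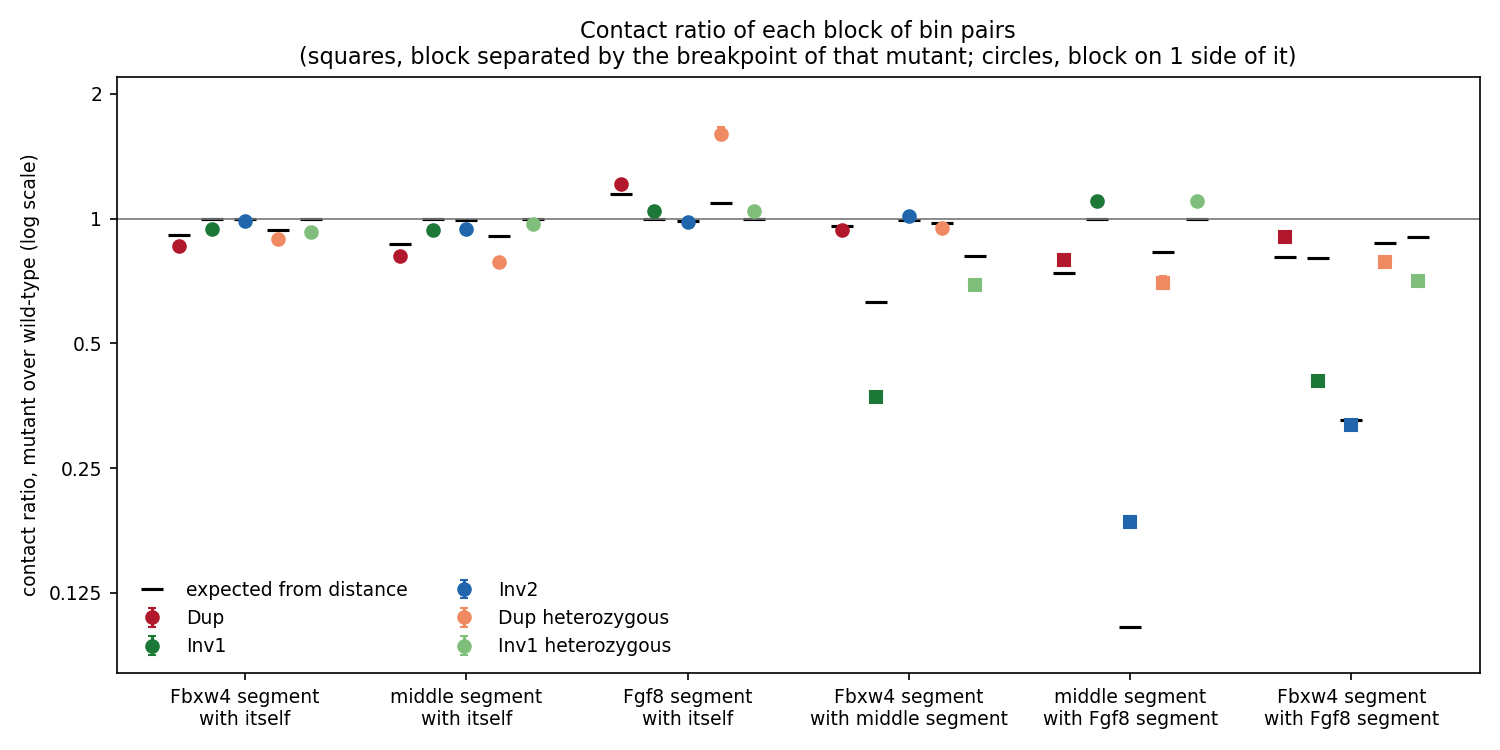
Contact ratio of each block of bin pairs, mutant over wild-type, on a log scale, for 5 mutant maps, with squares for blocks that span the mutant's breakpoint in the reference order, circles for the others, bars for 95% counting intervals and black dashes for ratios expected from distance. *Inv1* is lowest for the *Fbxw4* with the middle segment and *Inv2* is lowest for both blocks that join the *Fgf8* segment to the rest.

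*Dup* places a second copy of the *Fbxw4* and middle segments between the first copy and *Fgf8*, which is left single, so that the *Fgf8* segment adjoins only the telomeric copy. Reads of the copies cannot be told apart, and the ratios below are from maps balanced to equal bin totals. Between the *Fgf8* segment and the rest of the TAD the ratio to the wild-type was 0.846 (95% counting interval 0.835 to 0.857) over 130 pairs. It was 0.793 (0.778 to 0.808) for the middle segment as partner and 0.904 (0.888 to 0.920) for the *Fbxw4* segment. The expectation from distance, summed over the copies and balanced in the same way, was 0.740 and 0.806 for these blocks. Observed contact was thus 1.07 times the expectation for the middle segment and 1.12 times for the *Fbxw4* segment.

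Within the duplicated segments of *Dup*, balanced contact was 0.860 (0.854 to 0.867) times the wild-type for the *Fbxw4* segment, 0.812 (0.801 to 0.823) for the middle segment and 0.939 (0.928 to 0.951) between them. Within the single *Fgf8* segment it was 1.21 (1.19 to 1.23). The expectation from distance, balanced in the same way, was 0.912, 0.871 and 0.960 for the first 3 of these blocks and 1.15 within the *Fgf8* segment. Only 1 of 465 pairs was lower by at least 1.5-fold and none was higher, where 0.681% of all pairs of the map at these distances were lower and 0.748% higher. In the LOIC map as deposited, which keeps copy number, the ratios were 1.96 and 1.87 within the *Fbxw4* and middle segments and 2.14 between them. There the ratio for the *Fgf8* segment was 1.21 with the *Fbxw4* segment, 1.07 with the middle segment and 0.967 with itself, and 324 of 465 pairs were higher by at least 1.5-fold and none was lower. All 6 *Dup* blocks thus turned in direction in the LOIC map. With read pairs that were not balanced 5 of them turned, and the ratio within the *Fgf8* segment was 1.15.

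In the balanced map, in the LOIC map and with read pairs that were not balanced, contact of the *Fgf8* segment with the middle segment was lower, relative to the wild-type, than its contact with the *Fbxw4* segment, and contact between the *Fbxw4* and the middle segment was higher than within either. Across the *Dup* breakpoint the ratio was 0.773 (0.754 to 0.792) up to 50 kb, 0.864 (0.845 to 0.883) at 55 to 100 kb and 0.909 (0.891 to 0.928) at 105 to 165 kb in the balanced map, where distance gives 0.731, 0.781 and 0.813. All 16 bins of the *Fbxw4* segment and 6 of 10 bins of the middle segment had intervals above the expectation for their contact with the *Fgf8* segment.

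Along the TAD, the ratio was taken for pairs up to 50 kb apart that span a position, to show where it was lowest. In *Inv1* the lowest of 32 positions was 45735001, less than 1 kb from the breakpoint, with a ratio of 0.210 (0.204 to 0.216). The ratio was at or below 1/1.5 at 7 positions, from 45720001 to 45750001, and highest at 45785001, with 1.09 (1.07 to 1.12). In *Inv2* the lowest was 45790001, with 0.251 (0.245 to 0.258), and 7 positions from 45775001 to 45805001 were at or below 1/1.5. At 45795001, on the other side of the *Inv2* breakpoint bin, the ratio was 0.271, while distance gives 0.0679. The gap between these values cannot be read, because the expectation moves the whole breakpoint bin with the inversion. Of that bin, only 2725 bases lie on the centromeric side. With the *Fgf8* segment, this bin had an observed *Inv2* ratio of 0.565 and an expected one of 0.0326. In the balanced *Dup* map no position was at or below 1/1.5. The lowest, 0.738 (0.724 to 0.752), was also at 45790001, where distance, with the breakpoint bin again taken whole, gives 0.761. The direction of contact across the *Dup* breakpoint depended on the balancing. The minimum thus lay at an edge of the breakpoint bin in each of these maps.

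**Figure D4:**
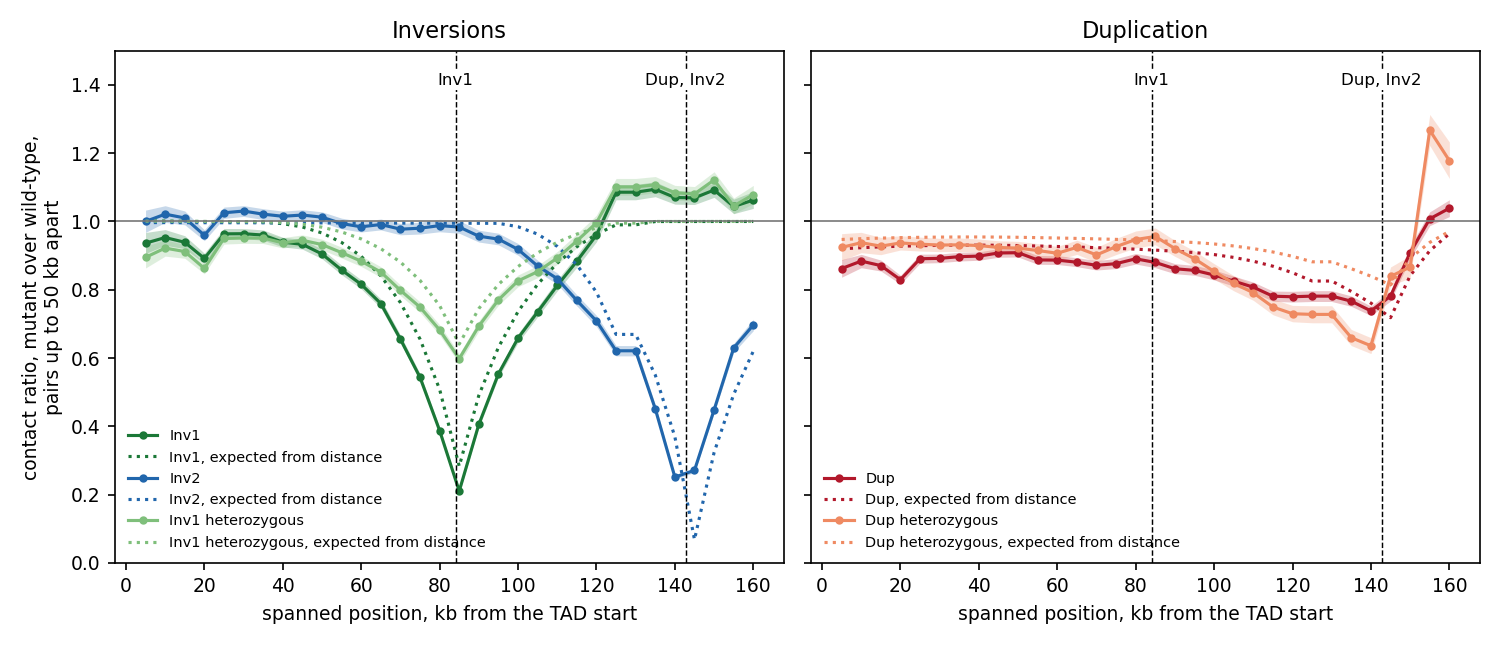
Contact ratio, mutant over wild-type, of bin pairs up to 50 kb apart that span each position, against the position in kb from the start of the TAD (bands for 95% counting intervals, dotted lines for ratios expected from distance, vertical dashed lines at the breakpoints). The profile reaches its minimum at the breakpoint of each allele, at 0.210 in *Inv1*, 0.251 in *Inv2* and 0.738 in *Dup*. *Dup* maps are balanced, and the expectation takes each breakpoint bin as a whole.

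Heterozygous *Inv1* lay between the homozygote and the wild-type where the breakpoint separates the partners. The ratio across the breakpoint was 0.697 (0.688 to 0.706) in heterozygous *Inv1*, beside 0.381 in homozygous *Inv1*. Its position, where 0 is the wild-type and 1 the homozygote, was 0.489 (0.475 to 0.504) over all such pairs, 0.489 (0.471 to 0.507) with the middle segment and 0.490 (0.465 to 0.515) with the *Fgf8* segment, and an equal mixture of alleles gives 0.5. Over all such pairs the position was 0.351 when maps were scaled to the same total only and 0.444 with read pairs that were not balanced. Of the 465 pairs, 82 were lower by at least 1.5-fold, of which 81 lay across the breakpoint, and 4 were higher. With scaling to the same total only, 26 were lower and 4 higher. Over the map at these distances 1.83% were lower and 3.13% higher. Between the middle and the *Fgf8* segment the ratio was 1.11 (1.08 to 1.13), beside 1.11 in the homozygote, and its position was 1.01 (0.722 to 1.29). The homozygous and the heterozygous map share the wild-type map as their reference.

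Across the breakpoint, heterozygous *Dup* did not lie between the homozygote and the wild-type. In balanced maps its contact across the breakpoint was 0.742 (0.725 to 0.761) times the wild-type, beside 0.846 in homozygous *Dup*, and its position on the same scale was 1.67. The expectation from distance for an equal mixture of alleles was 0.846. Of the 465 pairs, 39 were lower and 4 higher by at least 1.5-fold, where 2.54% of the pairs of the map were lower and 2.92% higher. All 4 higher pairs lay within the *Fgf8* segment, where the ratio was 1.60 (1.55 to 1.66). This segment had 0.649 times the wild-type read pairs per bin in this library, and with read pairs that were not balanced its ratio turned to 0.690. In the LOIC map as deposited, 163 pairs were higher and 3 lower by at least 1.5-fold. There the ratio across the breakpoint was 0.902 in heterozygous *Dup*, beside 1.13 in homozygous *Dup*, and that within segments and on 1 side of the breakpoint was 1.46, beside 1.91. Only the second of these places the heterozygote between the homozygote and the wild-type. The map rests on 1 library, and the part of its coverage in these values was not tested.

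The *Fgf8* start lies in the last bin of the TAD. Its level relative to distance with the *Fbxw4* segment was 1.55 in *Dup*, 0.653 in *Inv1*, 0.576 in *Inv2*, 1.41 in heterozygous *Dup*, 1.12 in heterozygous *Inv1* and 1.69 in the wild-type, and with the middle segment 0.879 in *Dup*, 1.22 in *Inv1*, 0.281 in *Inv2*, 0.832 in heterozygous *Dup*, 1.19 in heterozygous *Inv1* and 1.02 in the wild-type. The ratio to the wild-type was 0.402 (0.384 to 0.421) with the *Fbxw4* segment and 1.17 (1.11 to 1.22) with the middle segment in *Inv1*, and 0.325 (0.309 to 0.342) and 0.267 (0.249 to 0.285) in *Inv2*. Between the homozygous inversions, only *Inv2* had less contact of this bin with the middle segment. In balanced maps the ratios were 0.928 (0.894 to 0.964) with the *Fbxw4* segment and 0.848 (0.807 to 0.891) with the middle segment in *Dup*, and 0.853 (0.795 to 0.915) and 0.805 (0.734 to 0.882) in heterozygous *Dup*. Distance, balanced in the same way, gives 0.795 and 0.737 in *Dup* and 0.864 and 0.826 in heterozygous *Dup*. For the whole *Fgf8* segment, the LOIC ratios with these partners were 1.21 and 1.07 in *Dup* and 0.953 and 0.855 in heterozygous *Dup*. The direction of these blocks in *Dup* thus depended on the balancing.

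The ends of the TAD, taken as its first 3 and last 3 bins, had a level of 2.15 in *Dup*, 0.956 in *Inv1*, 0.818 in *Inv2*, 1.74 in heterozygous *Dup*, 1.69 in heterozygous *Inv1* and 2.42 in the wild-type. The ratio to the wild-type was 0.407 (0.383 to 0.432) in *Inv1*, 0.318 (0.297 to 0.340) in *Inv2* and 0.704 (0.666 to 0.745) in heterozygous *Inv1*. In balanced maps it was 0.906 (0.862 to 0.953) in *Dup* and 0.734 (0.669 to 0.806) in heterozygous *Dup*. These pairs belong to the block between the *Fbxw4* and *Fgf8* segments. In the LOIC maps the ratio of that block was 1.21 in *Dup* and 0.953 in heterozygous *Dup*. In the inverted order of *Inv1* these ends are closer together than in the wild-type. The expectation from distance, which leaves out their wild-type level of 2.42, gives a ratio of 1.16. For *Inv2* and *Dup* it gives 0.450 and 0.815, and for heterozygous *Dup* and heterozygous *Inv1* 0.877 and 1.08.

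As a share of its contact with all other bins of the map, each segment's contact inside the TAD differed between genotypes. For the *Fgf8* segment the share was 47.9% in *Dup*, 38.1% in *Inv1*, 25.0% in *Inv2*, 48.4% in heterozygous *Dup*, 42.6% in heterozygous *Inv1* and 46.6% in the wild-type. *Inv2* had the lowest share, and 7.92% of the signal of its *Fgf8* segment lay in the rest of the TAD, against 29.0% in the wild-type. The rest of the TAD includes the bins that hold a breakpoint. For the middle segment the share was 49.4% in *Dup*, 41.4% in *Inv1*, 47.9% in *Inv2*, 43.8% in heterozygous *Dup*, 48.0% in heterozygous *Inv1* and 56.8% in the wild-type, and for the *Fbxw4* segment 48.9% in *Dup*, 41.1% in *Inv1*, 50.7% in *Inv2*, 44.2% in heterozygous *Dup*, 45.6% in heterozygous *Inv1* and 54.0% in the wild-type. In *Inv1* both were the lowest of the 6 maps, and the *Fbxw4* segment had 6.66% of its signal in the rest of the TAD, against 15.4% in the wild-type. These shares come from balanced maps that were not scaled jointly, so differences in the decay of contact with distance enter them.

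**Figure D5:**
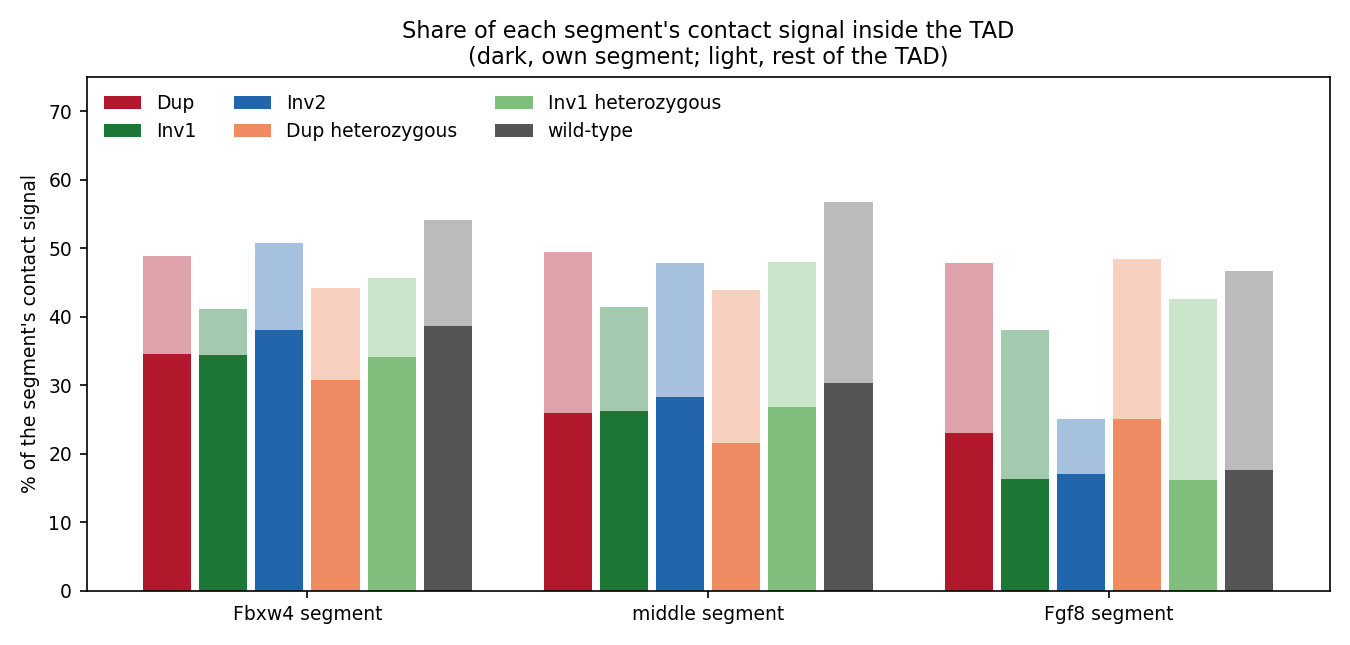
Share of each segment's contact signal with all other bins of the map that lay inside the *Fgf8* TAD, in percent, for 6 genotypes, split into contact within the segment (dark) and with the rest of the TAD (light). The *Fgf8* segment keeps 25.0% inside the TAD in *Inv2* and 46.6% in the wild-type.

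The 2 bins that hold a breakpoint split in the mutants. Of the *Inv1* breakpoint bin, which also holds the *Fbxw4* start site, 4101 bases lie on the centromeric side. In *Inv1* its contact was 0.772 (0.745 to 0.801) times the wild-type with the *Fbxw4* segment, 0.140 (0.130 to 0.151) times with the middle segment and 0.249 (0.224 to 0.276) times with the *Fgf8* segment. The *Dup* and *Inv2* breakpoint bin has 2725 bases on the centromeric side, and in *Inv2* its contact was 0.557 (0.539 to 0.576) times with the *Fbxw4* segment, 0.449 (0.436 to 0.463) times with the middle segment and 0.565 (0.552 to 0.579) times with the *Fgf8* segment. The first bin had the higher ratio with the *Fbxw4* segment, and the second bin had lower contact with both of its sides.

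Within the segments, 1 pair of neighbouring bins stood out in more than 1 genotype. The bins from 45665001 to 45670000 and from 45670001 to 45675000, in the *Fbxw4* gene, had a level of 1.10 in *Dup*, 1.08 in *Inv1*, 1.25 in *Inv2*, 1.72 in heterozygous *Dup*, 0.990 in heterozygous *Inv1* and 1.84 in the wild-type. The level was lower in *Dup*, *Inv1*, *Inv2* and heterozygous *Inv1* than in heterozygous *Dup* and the wild-type. The ratio to the wild-type was 0.578 (0.559 to 0.598) in *Dup*, 0.583 (0.560 to 0.608) in *Inv1*, 0.671 (0.646 to 0.697) in *Inv2*, 0.905 (0.864 to 0.948) in heterozygous *Dup* and 0.534 (0.509 to 0.560) in heterozygous *Inv1*. With read pairs that were not balanced, the ratio turned to 1.26 in *Dup* and 1.78 in heterozygous *Dup*, and it stayed between 0.486 and 0.626 in the maps with an inversion. Such read pairs keep copy number, and the whole *Fbxw4* segment had 2.13 in *Dup* and 1.59 in heterozygous *Dup*. The pair thus lay below its segment in *Dup* and above it in heterozygous *Dup*. All 5 comparisons share the wild-type map, and this pair was picked after its values were seen.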

How the data were processed

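The members and gene lists were chosen with earlier results of these data known. Per the labels and the study's methods, the authors trimmed reads, mapped them to mm9, joined the replicates and kept read pairs of the captured part of chromosome 19. The submitters' processing notes name Bowtie2 2.4.2 and Juicer 1.19.02. The deposited values are contact signal of 5 kb bins, which the authors balanced with Knight-Ruiz (KR) for *Inv1*, *Inv2*, heterozygous *Inv1* and the wild-type, so that every bin has about the same total. For *Dup* and heterozygous *Dup* the authors used LOIC, which keeps copy number. The copy number used for the heterozygote was not given in the sources used here.

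All 6 merged maps were used, and 3 maps that hold the authors' own subtractions of 1 genotype from another were not. LOIC maps were balanced here to equal bin totals. For each mutant, its map and the wild-type map were scaled so that pairs of bins outside the rearranged interval had the same mean at each distance and a total of 1000000. A ratio is the mean signal of a block of pairs in the mutant over that in the wild-type. Its 95% interval is the ratio multiplied or divided by exp(1.96 times the standard error of its log), from recovered read pairs. A bin pair was counted as higher or lower at 1.5-fold with at least 10 read pairs in each map, and the share over the whole map at the same range of distances was counted in the same way. Genes were named by a rule, which takes the protein-coding genes that overlap the TAD and the nearest one beyond each end. The recovery of read pairs, and ratios from signal that was not balanced, were checked on simulated maps. That check did not cover ratios after balancing or a second copy of a segment. Alternatives changed the scaling, the balancing, the breakpoint bins, the shortest distance, the TAD limits, the summary, the fold and the read minimum. Figures were drawn with matplotlib 3.10.9, and values were computed with numpy 2.4.6 in Python 3.11.15.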

Additional observations from a re-analysis of the deposited data

How the results depend on the processing

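Contact across the breakpoint was below the wild-type in 35 of 37 alternatives over the 5 mutants, and the exceptions were both in *Dup*. They were the settings without balancing to equal bin totals, with ratios of 1.13 and 1.27. The other *Dup* alternatives kept this balancing, under which distance gives 0.765, so they do not test it. A value moved where it left the counting interval of the main value, which for these read numbers is narrow. For the ratios across and on 1 side of the breakpoint and the counts, 56 alternatives stayed within that interval or within 1.5 times the count, 50 moved and 10 turned in direction. Over the single blocks 116 stayed, 84 moved and 22 turned. No cause was tested for any of them.

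When maps were scaled to the same total only, the ratio across the breakpoint was 0.408 in *Inv1*, 0.693 in heterozygous *Dup* and 0.792 in heterozygous *Inv1*, and on 1 side of it the ratio was 0.930 in *Dup*, 1.01 in *Inv2*, 0.798 in heterozygous *Dup* and 0.988 in heterozygous *Inv1*. The number of pairs past the fold was 77 in heterozygous *Dup* (1 higher and 76 lower) and 30 in heterozygous *Inv1* (4 higher and 26 lower). The block ratio that turned in *Inv2* was 1.01 within the *Fbxw4* segment. In LOIC maps as deposited, the ratio across the breakpoint was 1.13 in *Dup* and 0.902 in heterozygous *Dup*, and on 1 side of it the ratio was 1.91 in *Dup* and 1.46 in heterozygous *Dup*. The number of pairs past the fold was 324 in *Dup* (324 higher and 0 lower) and 166 in heterozygous *Dup* (163 higher and 3 lower). The block ratios that turned in *Dup* were 1.21 between the *Fbxw4* and *Fgf8* segments, 1.96 within the *Fbxw4* segment, 2.14 between the *Fbxw4* and middle segments, 0.967 within the *Fgf8* segment, 1.07 between the middle and *Fgf8* segments and 1.87 within the middle segment. The block ratios that turned in heterozygous *Dup* were 1.47 within the *Fbxw4* segment, 1.57 between the *Fbxw4* and middle segments and 1.31 within the middle segment. With read pairs that were not balanced, the ratio across the breakpoint was 1.27 in *Dup*, 0.403 in *Inv1*, 0.275 in *Inv2*, 0.657 in heterozygous *Dup* and 0.735 in heterozygous *Inv1*, and on 1 side of it the ratio was 2.01 in *Dup*, 1.02 in *Inv1*, 0.997 in *Inv2*, 1.5 in heterozygous *Dup* and 1.03 in heterozygous *Inv1*. The number of pairs past the fold was 330 in *Dup* (330 higher and 0 lower) and 288 in heterozygous *Dup* (219 higher and 69 lower). The block ratios that turned in *Dup* were 1.37 between the *Fbxw4* and *Fgf8* segments, 2.13 within the *Fbxw4* segment, 2.22 between the *Fbxw4* and middle segments, 1.17 between the middle and *Fgf8* segments and 1.87 within the middle segment. The block ratios that turned in heterozygous *Dup* were 1.59 within the *Fbxw4* segment, 1.68 between the *Fbxw4* and middle segments, 0.690 within the *Fgf8* segment and 1.45 within the middle segment. With each breakpoint bin given to the side that holds most of it, the ratio across the breakpoint was 0.358 in *Inv1*, 0.286 in *Inv2*, 0.804 in heterozygous *Dup* and 0.682 in heterozygous *Inv1*, and on 1 side of it the ratio was 0.881 in *Dup*, 0.959 in *Inv2* and 0.915 in heterozygous *Dup*. The number of pairs past the fold was 5 in *Dup* (0 higher and 5 lower). With pairs at least 15 kb apart, the ratio on 1 side of the breakpoint was 0.901 in *Dup*, 0.990 in *Inv1*, 0.999 in *Inv2* and 0.992 in heterozygous *Inv1*. The number of pairs past the fold was 0 in *Dup*. The block ratio that turned in *Inv2* was 1.01 within the *Fbxw4* segment. The block ratio that turned in heterozygous *Inv1* was 1.01 within the middle segment. With the TAD shortened by 1 bin at each end, the ratio across the breakpoint was 0.834 in *Dup*, 0.367 in *Inv1*, 0.234 in *Inv2* and 0.723 in heterozygous *Dup*, and on 1 side of it the ratio was 0.884 in *Dup* and 0.917 in heterozygous *Dup*. With the TAD lengthened by 1 bin at each end, the ratio across the breakpoint was 0.393 in *Inv1* and 0.264 in *Inv2*, and on 1 side of it the ratio was 0.898 in *Dup*. As the median of the ratios of single pairs, the ratio across the breakpoint was 0.866 in *Dup*, 0.413 in *Inv1*, 0.295 in *Inv2* and 0.708 in heterozygous *Inv1*, and on 1 side of it the ratio was 0.906 in *Dup*, 0.986 in *Inv1*, 1.01 in *Inv2* and 0.911 in heterozygous *Dup*. The block ratio that turned in *Inv2* was 1.01 within the *Fbxw4* segment. At 2-fold, the number of pairs past the fold was 0 in *Dup*, 3 in heterozygous *Dup* (1 higher and 2 lower) and 1 in heterozygous *Inv1* (0 higher and 1 lower).

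No paired analysis was possible because the replicates were merged into 1 map per genotype, and for the same reason no replicate was left out. The LOIC alternative exists for *Dup* and heterozygous *Dup* only. Depth limits heterozygous *Dup* most, and its poorest pair of the TAD held 20 read pairs. Counting intervals leave out differences between embryos. Clones cannot be told apart from the rearrangements, nor, by the labels, can strains in comparisons with the wild-type.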
